A study of Mus musculus with 9 samples.

Results

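The genes described here were 102 long noncoding RNA (lncRNA) genes with enough reads to be compared between mice. They were chosen by 2 criteria, a noncoding class in the GENCODE mouse annotation (release 21, build GRCm38, autosomes only) and at least 90 counts summed over the 9 libraries. They were 102 of 22262 genes with a count in any library, and 102 of 2500 autosomal lncRNA genes with a count. The counts that selected them set their level, so the levels below are a description. The selection did not use the housing of the mice, but the sum ran over both environments. A member near the limit can thus have passed through the environment in which it was higher. Examples are Gm43696 (4 to 11 counts in WT_SE, 8 to 17 in WT_EE) and Gm26532 (5 to 9 and 9 to 25). Calls of such low members are given as a description.

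The libraries came from the upper colon of wild-type C57BL/6N female mice, about a year old by the study's methods. The 4 WT_SE mice (mice 1, 2, 3 and 5) lived in a standard environment and the 5 WT_EE mice (mice 1 to 5) in an enriched one, which the labels call enhanced. In the enriched cages more mice shared a larger cage with more bedding and nesting material. These cages also held varied objects that were moved regularly, and wheels, tunnels and climbing cubes for exercise. RNA was read from the 3′ end with QuantSeq, in which an oligo-dT primer starts the copy and a unique molecular identifier (UMI) marks each molecule. The libraries were of whole tissue, in which fewer cells of a type and less RNA per cell cannot be told apart. Totals ran from 295535 to 454043 counts per library, and the markers of epithelium, goblet cells, smooth muscle and fibroblasts were all counted.

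A lncRNA is transcribed and often spliced and polyadenylated like a messenger RNA, but is not known to be translated into a functional protein. Some lncRNAs act in the nucleus as scaffolds, some silence neighbouring genes on 1 parental chromosome, and some are mainly carriers of small nucleolar RNAs (snoRNAs) or microRNAs in their introns or exons. Many others have no known role. In the colon, as elsewhere, most are present at lower levels than messenger RNAs, and transcripts that lie against or inside another gene are hard to separate from it.

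By annotated class the set held 37 lincRNA genes, 35 processed transcripts, 17 antisense genes, 7 genes with a bidirectional promoter and 6 sense-intronic genes. The label was checked against RefSeq, which listed 59 as lncRNA, 8 as protein-coding and 2 as pseudogenes, and held no entry for 33. The 8 that RefSeq calls protein-coding were Anxa13, Tmem134, Ptpmt1, Tmem250-ps, Zswim6, Cct6a, Ifi30 and 1810058I24Rik, with 3075 counts together. A counted gene overlapped 30 members on the same strand and 39 on the other strand, and the strand setting of the counting is not given in the sources used here, so reads of these pairs cannot be told apart with certainty. At the limit of 90 counts, Gm43696 (90) and AC102496.1 (91) lay just inside, and Trerf1 (89) and 2310010J17Rik (88, a total shared by 3 candidates) lay just outside.

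Because the libraries start from a run of A, the transcripts of the members were searched for such runs and for the letters AATAAA or ATTAAA, the usual polyadenylation signals, in their last 50 bases (transcript strand only). A run of 10 or more A was present in 41 of 102 members (40.2%), in 18.9% of 2398 lncRNA genes below the limit and in 31.6% of 8185 protein-coding genes with 90 or more counts. Among genes whose longest transcript had from 2000 to under 4000 bases the shares were 33.3%, 25.6% and 24.8%. A signal near the end was found in 79.4%, 62.0% and 91.3%, and 13 members had neither. These shares describe the annotated transcripts and do not show where priming took place. Bc1, a short RNA of neurons made from a single exon, has no signal but an inner A tract, and Kcnq1ot1 holds the longest run of the set, 41 bases. They are shown with the A runs of 8 or more in Bc1, and the longest run in the others, in capitals. Bc1 is whole (chr7:144914470-144914637, plus strand), the others carry 20 bases on each side.
Bc1: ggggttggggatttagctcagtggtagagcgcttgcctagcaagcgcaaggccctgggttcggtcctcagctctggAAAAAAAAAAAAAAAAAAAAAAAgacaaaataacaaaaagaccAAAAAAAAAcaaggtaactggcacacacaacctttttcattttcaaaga
Kcnq1ot1: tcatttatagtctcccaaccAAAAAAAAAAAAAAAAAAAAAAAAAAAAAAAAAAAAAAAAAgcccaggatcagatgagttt
Hoxaas3: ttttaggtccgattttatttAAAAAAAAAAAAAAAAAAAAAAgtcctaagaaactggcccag

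The last 60 bases of an annotated transcript of 4 members are shown with the signal in capitals, for comparison with Gm42418, the most counted member, whose annotated end holds none.
Malat1: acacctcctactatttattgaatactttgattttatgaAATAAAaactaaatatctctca
Snhg8: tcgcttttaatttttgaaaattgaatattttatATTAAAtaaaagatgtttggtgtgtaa
Snhg6: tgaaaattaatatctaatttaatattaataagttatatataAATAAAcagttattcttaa
Airn: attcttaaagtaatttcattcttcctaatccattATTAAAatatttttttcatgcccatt
Gm42418: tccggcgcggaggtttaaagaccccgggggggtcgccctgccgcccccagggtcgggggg

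The members held 40825 of 3365660 counts (1.21%). Their share was 1.22% ± 0.102 (SD, n = 4) in WT_SE and 1.23% ± 0.114 (SD, n = 5) in WT_EE. Gm42418 alone took 28.2% of the members' counts, the top 4 took 41.9% and the top 10 took 51.8%. By level, 47 members averaged under 20 counts per library, 49 averaged 20 to 80 and 6 averaged more. Levels below are normalized CPM (a gene's counts as parts of 1e6 library counts, scaled by the TMM factors of edgeR), and since the reads come from the 3′ end they were not divided by length. The median member stood at 56.3 CPM.

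**Figure D1:**
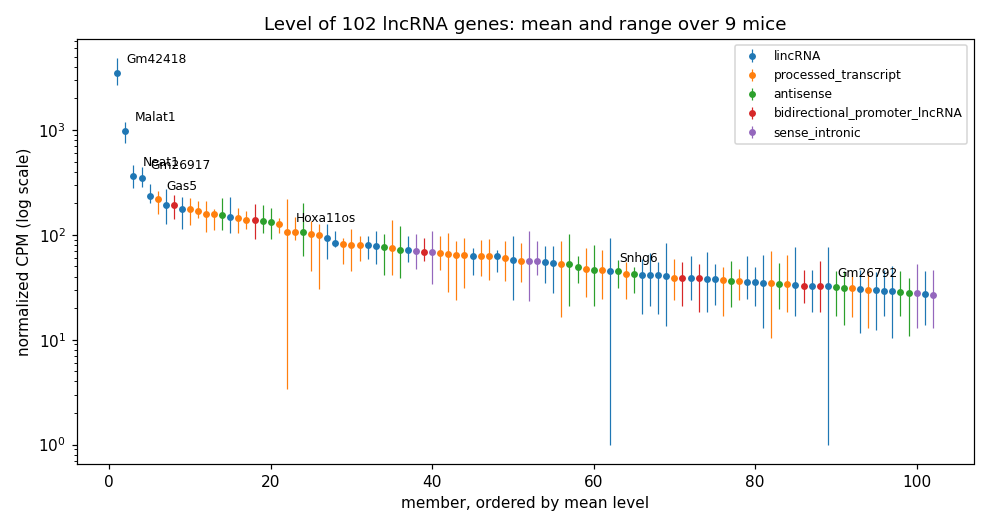
Each point is the mean normalized CPM (log scale) of 1 lncRNA gene over 9 mice, with the range as a bar and the annotated class as colour, ordered by level; a lowest value of 0 is drawn at 1. Gm42418 and Malat1 stood above all others, and the bars of Hoxa11os, Snhg6 and Gm26792 were the longest downward.

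Gm42418 (chr17:39846958-39848788, plus strand) and its neighbour Gm26917 (chr17:39843013-39846341, plus strand) are lincRNA models that match ribosomal RNA, so reads of ribosomal RNA and of these models cannot be told apart. Gm42418 had 1265, 1303, 1180 and 1177 counts in WT_SE and 1393, 1386, 1225, 1362 and 1222 in WT_EE. It was the most counted gene of all in these libraries on average, 3.20 times the next, mt-Rnr1. Gm26917 lay between 111 and 141 counts in WT_SE, and between 117 and 143 in WT_EE. The raw counts hardly moved although the library totals differed 1.54-fold.

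That flatness held for the other high members too. The slope of log counts on log library total was -0.022 for Gm42418, 0.22 for Malat1, 0.28 for Gm26917 and 0.49 for Neat1, where proportional counts give 1. Summed over all genes of 10 to 20 counts the slope was 1.35, and over those of 80 to 160 counts 0.55. After scaling by library, Gm42418 stood at 4831 CPM in WT_EE mouse 2, the library with the lowest total, and at 3007 CPM in WT_EE mouse 1, the one with the highest.

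**Figure D2:**
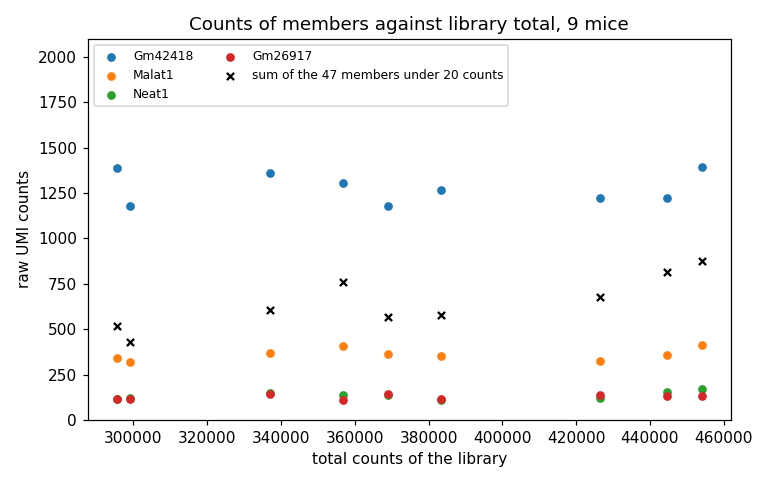
Raw UMI counts of 4 highly counted members, and the sum of the 47 members under 20 counts, plotted against the total of each of the 9 libraries. The counts of Gm42418 stay between 1177 and 1393 while the crosses climb with the total.

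Malat1 (chr19:5795690-5802672, minus strand), an abundant RNA of nuclear speckles, had 351, 409, 317 and 363 counts in WT_SE and 414, 340, 359, 369 and 325 in WT_EE. Neat1 (chr19:5824708-5845478, minus strand), the scaffold of paraspeckles, had 107 to 138 and 115 to 171. Neither was called between environments, with log2 fold changes of -0.12 ± 0.14 (SE) for Malat1 and 0.03 ± 0.14 (SE) for Neat1. The other 6 of the 10 highest members were 1700020I14Rik, Gas5, Ndufb1-ps, Meg3, Snhg18 and Foxd2os. None of the 10 was called. The counts of Malat1, Neat1, Gm42418 and Gm26917 rose less than in proportion to the library total, and whether this hides a change was not tested.

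The comparison of WT_EE with WT_SE asks whether these RNAs differed with housing. By the study's methods mice shared cages within an environment, and the sample titles do not name the cage. Cage mates are not independent, so effects of cage and of environment cannot be told apart. By edgeR's quasi-likelihood test (two-sided), 12 of the 102 members (11.8%) had an unadjusted p under 0.05, where 7.65% of all 17441 genes tested and 9.53% of protein-coding genes with 90 or more counts did. All 102 members passed the low-count filter. Of the 12, 6 were higher in WT_EE (background 4.31%) and 6 were lower (background 3.34%). After Benjamini-Hochberg adjustment over all genes none of the 102 was under 0.05, where 0.0401% of all genes were, and the lowest adjusted p was 0.25 (edgeR). DESeq2 called 5 members and limma-voom 10 without adjustment, and neither called any after it. The names of the libraries in the labels end in L2 or, for WT_SE mice 1 and 3, in L3, and what the ending stands for is not given. With the ending as a term in the fit 11 of the 12 calls were lost, 0610005C13Rik being kept, and 5 members were called in all. Leaving out 1 mouse at a time lost 2 to 6 of the 12 calls. Airn and 4632415L05Rik kept theirs without each mouse in turn, while 2810013P06Rik, Hand2os1, Gm43696, Anxa13, Brip1os and Mir22hg each lost theirs without any of several mice. The median log2 fold change was 0.036 over the members and 0.011 over all genes, with 61 members above 0 and 41 below (48 above 0 with upper quartile scaling), and 88 of 102 lay within 0.5 of 0.

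**Figure D3:**
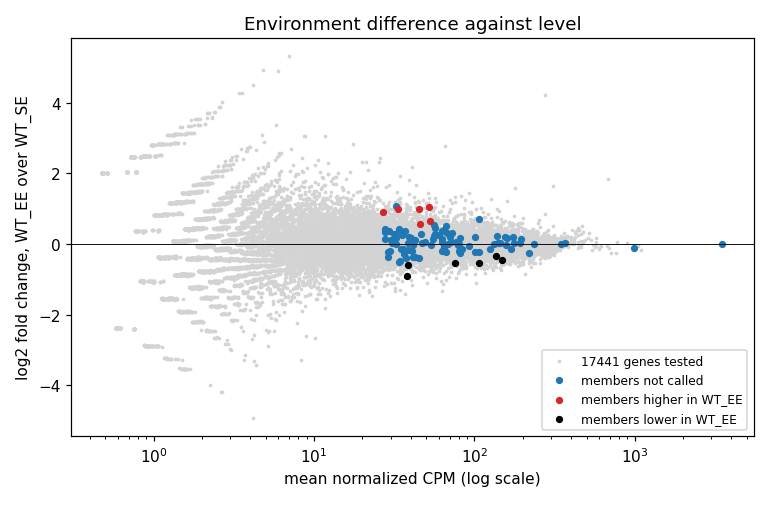
Log2 fold change of WT_EE over WT_SE (vertical) against mean normalized CPM (log scale) for all 17441 genes tested in grey and the 102 members in colour. The 6 higher and 6 lower members lie at the edge of the members' spread, and the members with the highest levels lie near 0.

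Airn, the antisense RNA that silences Igf2r and its neighbours on the paternal chromosome, had the lowest p of the set. It counted 8, 15, 7 and 15 in WT_SE and 28, 28, 26, 33 and 12 in WT_EE. Only WT_EE mouse 5 fell within the WT_SE range. In normalized terms it stood at 31.8 ± 11.1 CPM in the 4 WT_SE mice and at 68.9 ± 31.0 CPM in the 5 WT_EE mice (mean ± SD). The log2 fold change was 1.05 ± 0.31 (SE, edgeR unadjusted p = 0.0020, adjusted p = 0.25). Airn lies at chr17:12741311-12860136 on the plus strand and overlaps Igf2r on the other strand. Igf2r itself stood at 148 ± 22.4 CPM (SD) and 181 ± 28.1 CPM (SD), a log2 fold change of 0.30 ± 0.16 (SE) that was not called.

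Gm26532 (chr8:84208920-84209609, plus strand) begins where the hairpin of Mir24-2 ends, and counted 7, 8, 5 and 9 in WT_SE against 14, 17, 9, 25 and 13 in WT_EE. The log2 fold change was 0.98 ± 0.37 (SE, unadjusted p = 0.011), a call lost without WT_EE mouse 4. The raw WT_EE counts reached from the top of the WT_SE range upward. After scaling, WT_EE mouse 3 stood at 19.7 CPM, within the WT_SE range of 16.9 to 24.6 CPM. Gm26532 was highest in WT_EE mice 2 and 4, at 59.3 and 77.3 CPM. Airn was also highest in WT_EE mice 2 and 4, at 97.6 and 102 CPM. Those libraries had the lowest totals of WT_EE, and of 11 cell type marker lists 5 had their highest sums there. In WT_EE mice 2 and 4 in turn, the sums were 2841 and 2839 CPM for smooth muscle (1508 to 1974 in the other 7 libraries), 2970 and 3102 for epithelium (2194 to 2750) and 1353 and 1218 for fibroblasts (868 to 1099). For endothelium they were 199 and 223 CPM (103 to 170) and for enteric glia 80.2 and 89.7 CPM (21.9 to 65.6). Sums for T and B lymphocytes were 52.3 and 37.1 CPM (50.7 to 111), lowest of all in WT_EE mouse 4. Those for macrophages were 87.1 and 108 CPM (105 to 188), lowest of all in WT_EE mouse 2. The part of these differences in the result was not tested.

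Snhg6, a snoRNA host gene, counted 11, 23, 0 and 9 in WT_SE and 43, 7, 26, 14 and 32 in WT_EE. The groups overlapped widely, and the count of 0 in WT_SE mouse 3 allows up to 3 counts, or 10.1 CPM. The log2 fold change was 0.99 ± 0.38 (SE, unadjusted p = 0.014), and the call was lost without WT_SE mouse 3 or without WT_EE mouse 1. Hand2os1, which lies against Hand2, a transcription factor gene of mesenchyme and enteric neurons, counted 16, 27, 7 and 6 in WT_SE and 29, 25, 22, 23 and 22 in WT_EE. Its log2 fold change was 0.65 ± 0.30 (SE, unadjusted p = 0.037), and that of Hand2 was 0.40 ± 0.28 (SE), not called. The summed level of 4 enteric glia markers was 49.6, 61.3, 23.7 and 21.9 CPM in WT_SE and 54.0, 80.2, 65.6, 89.7 and 48.6 CPM in WT_EE. Hand2os1 stood at 41.8, 75.2, 23.7 and 16.4 CPM and at 62.6, 87.1, 48.1, 71.1 and 50.9 CPM in the same mice, so both were lowest in WT_SE mice 3 and 5. Enteric neuron markers ranged from 146 to 320 CPM in WT_SE and from 137 to 310 CPM in WT_EE. The part of these cells in the result was not tested. Gm43696, the sense-intronic member at the limit of 90 counts, counted 4 to 11 in WT_SE and 8 to 17 in WT_EE. Anxa13, which RefSeq lists as protein-coding, counted 9 to 16 in WT_SE and 7 to 31 in WT_EE.

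The 6 lower members began with 4632415L05Rik (chr3:19894886-19898984, plus strand), which RefSeq lists as a transcribed pseudogene. It counted 26, 19, 15 and 13 in WT_SE and 12, 9, 15, 6 and 12 in WT_EE, and after scaling the groups did not overlap. The WT_SE mice averaged 51.8 ± 13.2 CPM and the WT_EE mice 27.3 ± 5.60 CPM (mean ± SD, n = 4 and n = 5). The log2 fold change was -0.91 ± 0.28 (SE, unadjusted p = 0.0027, adjusted p = 0.28). 2810013P06Rik, whose start lies 189 bases from that of Ankrd11 on the other strand, also did not overlap, at 48.0 ± 6.92 CPM (SD) and 31.3 ± 6.36 CPM (SD). The exact permutation p (two-sided) was 0.0079 for each of these members, the smallest that 4 against 5 mice can give. It was read only for members whose groups do not overlap, so it adds no support of its own. These were 2 of 102 members (1.96%), where 2.58% of all genes tested had groups that did not overlap. Ankrd11 had a log2 fold change of 0.01 ± 0.16 (SE).

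Gm10076, listed by RefSeq as a pseudogene, counted 70, 53, 68 and 53 in WT_SE and 48, 45, 68, 37 and 49 in WT_EE, a log2 fold change of -0.47 ± 0.17 (SE, unadjusted p = 0.0084), a call lost without WT_SE mouse 3. 0610005C13Rik, antisense to Bcat2, was highest in WT_SE mouse 2 at 72 counts and ran from 22 to 58 in WT_EE. Its call was lost without that mouse or without WT_EE mouse 5. Brip1os counted 48 to 57 in WT_SE and 30 to 59 in WT_EE, with the smallest fall of the 6, -0.34 ± 0.16 (SE). After scaling, Brip1os stood at 131 to 193 CPM in WT_SE and at 105 to 134 CPM in WT_EE. Its neighbours Med13, Ints2 and Brip1 were not called.

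**Figure D4:**
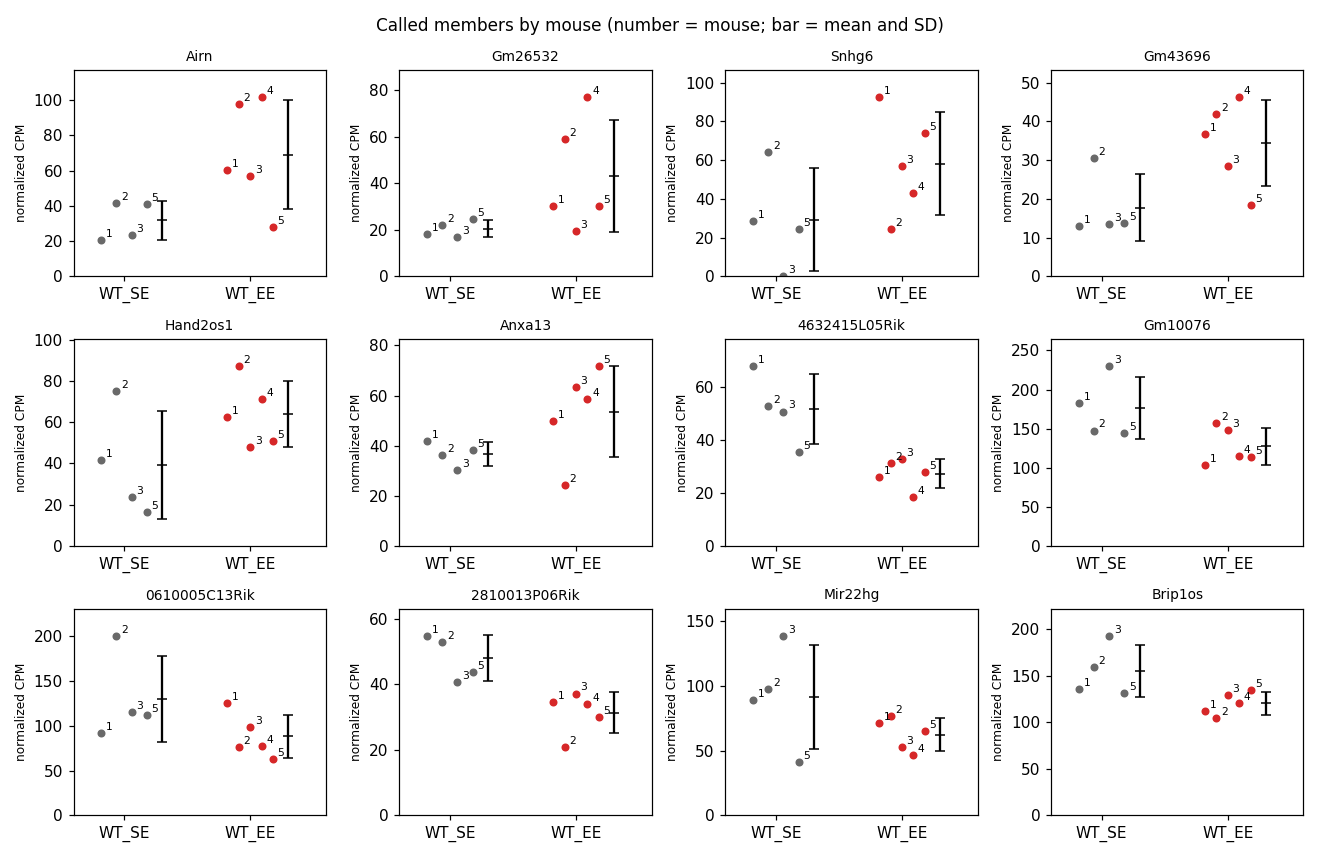
Normalized CPM of the 12 called members in each mouse, WT_SE in grey and WT_EE in red, with the mouse number beside each point and the mean and SD as a bar. The groups are apart for 4632415L05Rik and 2810013P06Rik and overlap for the other 10.

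Mir22hg, the host of miR-22, counted 34, 35, 41 and 15 in WT_SE and 33, 22, 24, 15 and 28 in WT_EE, a log2 fold change of -0.53 ± 0.25 (SE, unadjusted p = 0.037). WT_SE mouse 5 was as low as the lowest WT_EE mouse. Both mature microRNAs of each hairpin that a called member overlaps, and miR-16-5p of the uncalled Dleu2, were read from RefSeq (GRCm38) and are shown 5′ to 3′ with the seed (bases 2 to 8) in capitals. Each has its own seed. Gm26532 overlaps only the end of the Mir24-2 hairpin, and both miR-24 sequences lie before its annotated start. The hairpins are Mir22 at chr11:75463716-75463810 (plus strand), Mir24-2 at chr8:84208815-84208921 (plus strand) and Mir16-1 at chr14:61631880-61631972 (minus strand).
mmu-miR-22-5p: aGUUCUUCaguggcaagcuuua
mmu-miR-22-3p: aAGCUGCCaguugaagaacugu
mmu-miR-24-2-5p: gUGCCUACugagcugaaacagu
mmu-miR-24-3p: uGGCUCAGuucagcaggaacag
mmu-miR-16-5p: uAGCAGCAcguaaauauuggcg

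Of the 102 members 8 overlapped a microRNA hairpin on the same strand. The counts here are of the overlapping RNA and not of the microRNA. Apart from Gm26532 and Mir22hg none was called. A330023F24Rik, which spans Mir29b-2 and Mir29c, came nearest, with 11, 37, 11 and 16 counts in WT_SE, 22 to 38 in WT_EE and a log2 fold change of 0.51 ± 0.27 (SE). Gm13648, which spans the Mir200a, Mir200b and Mir429 hairpins of epithelium, counted 16 to 30 and 13 to 41. In the list of microRNA host genes, 6 genes were tested, of which Mir22hg was lower and Mir17hg, with 55 counts in all and so no member, was higher. Over all genes tested 7.65% were called, and 2 calls in so short a list are given as a description.

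The snoRNA host genes are spliced RNAs whose introns carry snoRNAs, which guide the modification of ribosomal RNA. Of 21 listed genes 18 were tested and 11 were members, and Snhg6 alone was called, where 7.65% of all genes tested were. Their summed level (mean ± SD) was 969 ± 91.8 CPM in the 4 WT_SE mice and 955 ± 126.3 CPM in the 5 WT_EE mice, and the median log2 fold change of the 11 was 0.025. Gas5, the highest of them, counted 101, 79, 74 and 83 in WT_SE and 97, 56, 73, 82 and 87 in WT_EE, a log2 fold change of -0.24 ± 0.14 (SE). It was among the evenest members, with a spread of 13.1% between mice of 1 environment. Snhg8 counted 43, 43, 9 and 39 in WT_SE and 26 to 59 in WT_EE, so WT_SE mouse 3 stood far below the others.

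Many of these host genes are known to start within a stretch of C and T, as ribosomal protein genes do. A run of 7 or more C or T within 20 bases of a RefSeq start (GRCm38, gene strand, any start of a gene) was found in 5 of the 9 snoRNA host members with a promoter sequence, in 19 of 53 members (35.8%) and in 27.7% of all 25748 autosomal genes of that table. The 5 windows are shown with the run in capitals and the start in the middle. The run spans the start in Snhg8, Snhg12 and Snhg18 and lies after it in Snhg1 and Snhg5. Among the host members without such a run, the longest was 6 bases in Gas5, 5 in Snhg3, 4 in Zfas1 and 2 in Snhg14. The windows shown lie at chr19:8723467-8723506 (Snhg1, plus), chr9:88522878-88522917 (Snhg5, minus), chr3:123508317-123508356 (Snhg8, minus), chr4:132308658-132308697 (Snhg12, plus) and chr15:32244643-32244682 (Snhg18, minus).
Snhg1: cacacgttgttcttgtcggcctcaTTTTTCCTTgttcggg
Snhg5: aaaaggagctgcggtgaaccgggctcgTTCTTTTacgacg
Snhg8: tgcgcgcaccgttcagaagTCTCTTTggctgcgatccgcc
Snhg12: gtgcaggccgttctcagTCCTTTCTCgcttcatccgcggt
Snhg18: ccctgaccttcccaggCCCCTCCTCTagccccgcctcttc

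The imprinted lncRNAs are expressed from 1 parental chromosome. Of 10 listed, 7 were tested and 5 were members: Meg3, Kcnq1ot1, Airn, Peg13 and Snhg14. Airn was higher and Mirg, with 18 counts in all and 0 to 5 in a library, was lower, where 7.65% of all genes tested were called in either direction. Meg3 counted 62, 94, 44 and 57 in WT_SE and 101, 65, 81, 88 and 55 in WT_EE, a log2 fold change of 0.14 ± 0.18 (SE). Kcnq1ot1 stood at 141 ± 35.0 CPM (SD) and 167 ± 46.7 CPM (SD). Snhg14 went the other way, with 8 to 25 counts in WT_SE, 3 to 19 in WT_EE and a log2 fold change of -0.49 ± 0.33 (SE). Among lncRNAs of growth control, 8 were tested, the members Tug1, Gas5 and Meg3 were not called and Dnm3os, with 17 counts in all, 9 of them in WT_SE mouse 2, was lower. None of the immune response lncRNAs reached 90 counts, and none of the 5 tested was called.

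The Hox genes are transcription factors that mark position along the gut, and Hoxa11os runs against Hoxa11. It counted 40, 10, 1 and 60 in WT_SE and 34, 63, 41, 55 and 49 in WT_EE. WT_SE mice 2 and 3 were low, and the other WT_SE mice lay within the WT_EE range. The log2 fold change was 0.72 ± 0.36 (SE, unadjusted p = 0.0505), just outside the threshold. Of 10 coding genes of the HoxA cluster that were tested, 3 were called higher, Hoxa11 (0.74 ± 0.28 SE), Hoxa10 (0.64 ± 0.24 SE) and Hoxa9 (0.67 ± 0.33 SE), and 0 were called lower, where 4.31% and 3.34% of all genes were. Hoxa9 counted 50, 9, 3 and 43 in WT_SE and 25 to 59 in WT_EE. The other 7, Hoxa2 to Hoxa7 and Hoxa13, were not called and ran from -0.19 to 0.60. Hoxa10 counted 63, 24, 14 and 66 in WT_SE and 51 to 83 in WT_EE. Aqp8, a water channel of surface colonocytes chosen here after its values were seen, counted 81, 17, 2 and 110 in WT_SE and 68, 107, 68, 111 and 101 in WT_EE, low in the same mice. Slc10a2, the bile acid transporter of the ileum, also chosen after its values were seen, counted 26, 103, 110 and 16 in WT_SE and 107, 3, 117, 4 and 10 in WT_EE. It was high in WT_SE mice 2 and 3 and as high in WT_EE mice 1 and 3. After scaling, Hoxa11os stood at 27.8, 3.38, 73.4 and 89.6 CPM in these mice, lower than in any other. Hoxa11os stood at 104 and 164 CPM in WT_SE mice 1 and 5, and at 220, 170 and 113 CPM in WT_EE mice 2, 4 and 5. Aqp8 had its lowest WT_EE counts, 68 in both, in WT_EE mice 1 and 3, the libraries with the highest totals. Whether the sampled piece of colon differed in position was not tested. Hoxaas3, the other Hox member, counted 38, 15, 18 and 37 in WT_SE and 14 to 43 in WT_EE.

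The 6 sense-intronic members lie within introns of a coding gene on the same strand. Their summed level was 191, 340, 223 and 282 CPM in WT_SE and 328, 432, 295, 424 and 236 CPM in WT_EE. All 6 had a fold change above 0, with a median of 0.36. Gm43696, which lay at the limit of 90 counts with its higher counts in WT_EE, was called. With the library-name ending as a term 5 of the 6 stayed above 0. Of their hosts, the log2 fold changes of Slc16a1, Lrig2 and Capza1 were -0.01, -0.03 and -0.05, and those of Farp1, Trappc9 and Cd38 were -0.53, -0.30 and 0.15, and these 6 hosts were not called. The summed level was highest in WT_EE mice 2 and 4, the libraries in which 5 of the 11 marker lists, named above with Gm26532, were also highest. Their part in this was not tested.

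Between mice of 1 environment the median member varied by 27.9% of its mean. Members of 10 to 20 counts per library varied by 35.2% and protein-coding genes in that range by 29.3%, and at 20 to 80 counts the values were 24.7% and 18.6%. Counting error was not taken out. For members of 10 to 20 counts it ran from 22.5% (Hand2os1) to 31.6% (Gm43696). Levels within a range were not matched either. At 20 to 40 counts lay 34 members and 2576 of all genes, and at 40 to 80 counts 15 and 2256. Whether lncRNAs varied more than coding genes of equal level was not tested. Gm26792 (chr19:46335287-46338538, plus strand) varied most, by 105%. It counted 0, 19, 4 and 3 in WT_SE and 0, 22, 0, 25 and 27 in WT_EE, near or at 0 in 5 of 9 mice and at 19 or more in 4. Cuedc2, which it overlaps on the other strand, counted 8 to 17 in every mouse. Hoxa11os varied by 61.9%, Snhg6 by 58.3%, D930016D06Rik by 57.7% and Gm26532 by 55.3%. Ptpmt1, which RefSeq lists as protein-coding, was the evenest, at 10.4%. That is below its counting error of 14.6%, so its evenness cannot be told from counting.

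**Figure D5:**
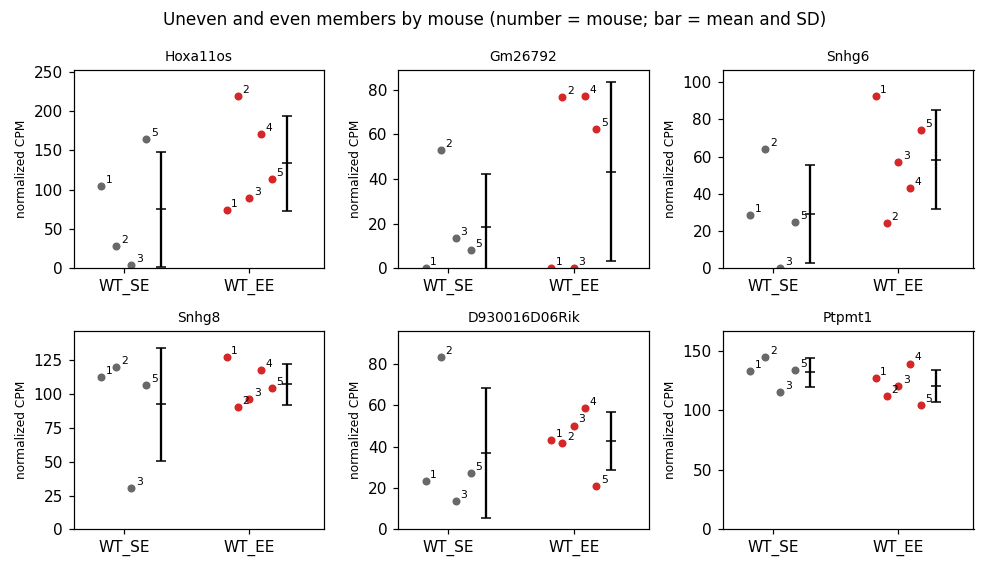
Normalized CPM by mouse for 5 members with uneven levels and for Ptpmt1, the evenest, with the mouse number beside each point and the mean and SD as a bar. WT_SE mouse 3 is lowest of its group for Hoxa11os, Snhg6, Snhg8 and D930016D06Rik, and Gm26792 is at 0 in 3 mice.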

How the data were processed

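RNA was measured in 9 colon libraries (4 WT_SE, 5 WT_EE). The deposited values were raw UMI counts per gene, made by the authors with fastp 0.20.0, STAR 2.7.0f, featureCounts 1.6.0 and UMI-tools on GRCm38.p6, per the submitters' processing notes. The files list only genes with a count. The filter, 4 CPM or more in 1 library or more, left 17441 genes, which were scaled by TMM and tested with edgeR 4.0.16 (quasi-likelihood, two-sided). Groups and replicate numbers came from the sample titles, and each number was taken as a separate mouse. The SE of a fold change is the change divided by the root of its F statistic. A member was called at an unadjusted p under 0.05. The fit was tested on simulated data. The members and lists were chosen with earlier results of these data known. Named genes were list members, the 10 highest, up to 10 called in each direction, 2 on either side of the count limit, the 5 most uneven, and coding genes that overlap them or start within 5 kb. Alternatives were other scalings and filters, DESeq2 1.42.0, limma 3.58.1, the library-name ending as a term, a replicate block, and each mouse left out. Leaving out Gm42418 and Gm26917, or the members that RefSeq lists as protein-coding, was added after seeing the data. A count of 0 allows up to 3 counts. Such limits cover counting error only.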

Additional observations from a re-analysis of the deposited data

Results flagged for a closer look

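In 76 groups of 4 or 5 mice (38 named members in 2 environments) the gap of 1 mouse to the next was tested against Dixon's limit, which chance passes in about 1 of 20 groups. In 7 groups a mouse stood apart, where that rate gives 3.8. The named members include the called and the most uneven ones, so the rate is only a guide. WT_SE mouse 2 was highest for Meg3 (262 CPM, others 149 to 162), Peg13 (64.0 CPM, others 44.4 to 47.3) and Gm43696 (30.6 CPM, others 13.1 to 13.7). Peg13 rested on 23 counts against 14 to 17, and Gm43696 on 11 against 4 to 5. WT_SE mouse 3 was lowest for Snhg8 (30.4 CPM, others 107 to 120), and WT_SE mouse 1 for Snhg1 (52.2 CPM, others 82.0 to 87.9). In WT_EE, mouse 1 was highest for Zfas1 (121 CPM, others 89.6 to 97.6) and mouse 3 was lowest for Dleu2 (41.5 CPM, others 77.3 to 87.1).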

How the results depend on the processing

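Of the 12 called members, Airn and 4632415L05Rik kept their call in 18 of 20 alternatives each and Anxa13 in 6, and none changed direction. The number called fell from 12 to 5 (2 higher, 3 lower) with DESeq2, to 5 (1 higher) with the library-name ending as a term, and to 4 (1 higher, 3 lower) without WT_SE mice 1 and 3, the libraries of the other ending. With no filter on low counts 10 were higher. Leaving out each mouse gave 6 to 17 calls, 2 to 15 higher and 2 to 7 lower, with a median log2 fold change of 0.0087 to 0.15. Without WT_SE mouse 2 there were 15 higher and 2 lower, without WT_SE mouse 3 there were 6 calls, and without WT_EE mouse 4 there were 7. The causes were not tested. Upper quartile scaling turned the median to -0.0095, the ending as a term to -0.034 and leaving out the other ending to -0.022. The mouse number as a replicate block gave 13 calls, but same-numbered mice deviated together with correlations of only -0.022 to 0.13 over 8493 genes, so the numbers were not taken as pairs. The median member had 21.1 counts per library, which limits the changes that can be seen.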
